A study of Mus musculus with 40 samples.

Results

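Glutamate and GABA receptor subunits were measured in cerebral cortex and cerebellum from mice that differed in age, diet and the gene for the vitamin E transfer protein. The members were chosen by gene symbol: every mouse probe named for a subunit of an ionotropic glutamate receptor (the AMPA, NMDA, kainate and delta families), of a metabotropic glutamate receptor, of a GABA-A receptor or of a GABA-B receptor. This gave 44 genes with 69 probes, of 36362 named genes and 55681 probes on the array. The rule reads gene symbols only. Gabra6 and the glycine receptors were not among the symbols chosen and are given only as neighbours of the pathway.

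Total RNA was hybridised to 1-colour Agilent arrays, 40 in all, with 4 mice in each of 10 groups. All mice were C57Bl/6. In each region, young wild-type mice of 2 months and aged wild-type mice of 29 months had eaten the normal diet (36 mg of α-tocopherol per kg), a further group of aged wild-type mice had eaten the α-tocopherol-deficient diet, and aged Ttpa-/- mice had eaten the deficient diet or the supplemented diet (600 mg of α-tocopherol per kg). Ttpa encodes the transfer protein that keeps α-tocopherol, the main form of vitamin E, in circulation, and the study used its loss with the deficient diet as a model of long-lasting oxidative stress in the brain. No young Ttpa-/- group and no Ttpa-/- group on the normal diet was analysed here, so that genotype was always compared together with a diet or between unlike diets, except where both genotypes ate the deficient diet. Sex is not given in the sources used here, and neither is whether the cortex and cerebellum arrays of 1 number came from 1 mouse.

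Glutamate is the main excitatory transmitter of the brain. AMPA receptors (Gria genes) carry most of the fast current, NMDA receptors (Grin genes) open only when transmitter and depolarisation coincide and let in calcium, kainate receptors (Grik genes) modulate release and excitability, and delta receptors (Grid genes) organise synapses. Metabotropic receptors (Grm genes) act through G proteins. GABA is the main inhibitory transmitter, and most GABA-A receptors are chloride channels built from alpha, beta and gamma or delta subunits, whose mix sets the kinetics, the drug response and the place on the neuron. GABA-B receptors are obligate pairs of Gabbr1 and Gabbr2. The cerebellum is dominated by granule cells, which are small and very numerous, and the only output neurons of its cortex are Purkinje cells, which act on the deep nuclei, whereas the cortex holds pyramidal neurons with several kinds of interneuron, so that the 2 regions are known to build their receptors from different subunits.

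Several GABA-A subunit genes lie in clusters. By the positions that the array's design gives on mm9, the probes of Gabrg1, Gabra2, Gabra4 and Gabrb1 lay together on chromosome 5, and those of Gabrg3 and Gabra5 on chromosome 7. The sequences below are the 250 bases before the start of 3 genes of these clusters, which were all higher in the cortex in every condition, and of Grin2c and Gria4, which were lower there in every condition. They are shown because the difference between regions is the main pattern of the data. They come from RefSeq on GRCm38.p6, are written 5′ to 3′ on the strand of the gene, and capitals mark a match, on either strand, to the GC box GGGCGG or to another motif searched below.
Gabra5, chr7:57510060-57510309, minus strand: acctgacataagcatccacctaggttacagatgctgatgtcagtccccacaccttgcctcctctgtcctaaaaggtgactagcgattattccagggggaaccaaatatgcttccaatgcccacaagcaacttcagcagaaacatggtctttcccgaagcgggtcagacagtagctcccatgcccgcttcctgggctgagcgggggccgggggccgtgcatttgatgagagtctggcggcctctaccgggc
Gabrg3, chr7:57387216-57387465, minus strand: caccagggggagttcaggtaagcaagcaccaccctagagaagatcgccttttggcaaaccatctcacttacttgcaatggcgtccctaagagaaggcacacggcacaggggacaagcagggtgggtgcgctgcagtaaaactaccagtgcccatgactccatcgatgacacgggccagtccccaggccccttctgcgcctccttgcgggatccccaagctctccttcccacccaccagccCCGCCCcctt
Gabra4, chr5:71658309-71658558, minus strand: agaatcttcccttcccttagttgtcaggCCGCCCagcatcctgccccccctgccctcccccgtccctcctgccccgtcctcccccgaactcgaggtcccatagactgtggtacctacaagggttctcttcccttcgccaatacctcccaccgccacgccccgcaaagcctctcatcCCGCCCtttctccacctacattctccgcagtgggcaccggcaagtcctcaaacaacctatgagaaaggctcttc
Grin2c, chr11:115267244-115267493, minus strand: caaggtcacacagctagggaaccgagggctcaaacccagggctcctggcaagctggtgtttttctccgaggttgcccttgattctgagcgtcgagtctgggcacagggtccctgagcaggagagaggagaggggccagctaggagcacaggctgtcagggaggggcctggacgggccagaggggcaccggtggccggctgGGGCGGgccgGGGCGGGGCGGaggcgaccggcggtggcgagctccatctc
Gria4, chr9:4796235-4796484, minus strand: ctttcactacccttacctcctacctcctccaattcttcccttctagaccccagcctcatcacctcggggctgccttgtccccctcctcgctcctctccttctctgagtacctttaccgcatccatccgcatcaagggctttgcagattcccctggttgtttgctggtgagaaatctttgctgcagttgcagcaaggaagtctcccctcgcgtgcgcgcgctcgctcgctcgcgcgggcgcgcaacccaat
The Gabra4 promoter held 2 GC boxes, that of Gabrg3 held 1, and that of Grin2c held 3, of which 2 overlapped. Those of Gabra5 and Gria4 held none of the motifs.

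RefSeq promoters were at hand for 30 of the 44 genes, 37 promoters in all. A GC box was present in 18 of the 37 (17 genes), beside 32.7% of all 32841 promoters. The letters TATAAA, on either strand, stood in 4 promoters of 3 genes (Gabra3, Gabrb2 and Grin3b), beside 12.4% of all, and the cyclic AMP response element TGACGTCA stood in 0 of the 37, beside 1.55% of all. The subunit promoters had a median GC content of 60.4% and a median of 9 CG pairs, beside 52.4% and 6 over all promoters. These are matches of letters and were not read as binding sites.

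Signals are given as log2 of the processed signal minus log2 of the 75th percentile of its array, so that a value of 0 is the 75th percentile. A level is not compared between genes, since each probe binds its target differently. A gene was called changed when limma's adjusted p was under 0.05 and the fold change over 1.5, and the brightest probe stood for each gene. Of the 44 genes, 37 were well above background on all 40 arrays, Grin2d on 39, Gabra5 on 36 and Grin3b on 24. Gabre, which encodes the epsilon subunit, was above background on 1 array, Gabrq (theta) on 1, Gabrr3 (rho) on 2 and Grm6, the metabotropic receptor of retinal bipolar cells, on 0, and these 4 genes were tested in no comparison. No spot of a member was saturated. The arrays measure RNA of whole tissue, in which fewer cells of a type and less RNA per cell cannot be told apart.

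The 75th percentile of the signal was 365 to 925 among the arrays, and 51.4% to 61.4% of the probes were above background. Ttpa itself was above background in the cerebellum on 4 of 4 young wild-type arrays and on 0 of 4 deficient-diet Ttpa-/- arrays. On the latter it was at least 2.64-fold lower than in aged wild-type mice (adjusted p = 4.16e-08 by limma). In supplemented Ttpa-/- cerebellum Ttpa was not below background on every array, so that no such bound is given there. It was near or below background throughout the cortex. The tissue labels held up against their markers: the 8 cortical projection neuron genes were all higher in young cortex, and the 9 granule cell and 7 Purkinje cell genes were all lower. The arrays were run on 5 slides of 8, and each group lay on a single slide, so that in most comparisons slide and group cannot be told apart. Libraries that stood apart were replicates 1 and 2 of the young cerebellum, with low summed midbrain and brainstem marker signal, and replicate 4 of the deficient-diet Ttpa-/- mice, which is described with the cortex results.

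Between the regions of young wild-type mice, 29 of the 40 tested subunits differed. Of these, 20 were higher in the cortex, beside 19.4% of all genes tested, and 9 were higher in the cerebellum, beside 17.8%. As shares of the 40 members these are 50% and 22.5%, and calls in either direction took 72.5% of the members beside 37.2% of all genes. The median difference, cortex minus cerebellum, was 0.64 on the log2 scale over the members and 0.05 over all genes tested. The 4 arrays of each region did not overlap for 33 of the 40 members, beside 58.3% of all genes. The 9 include Gria2, whose 2 probes were called in opposite directions, and without it 28 of 39 subunits were called, 20 higher in the cortex and 8 lower. In each condition the 2 regions lay on different slides. Only slide 3 held both, as cortex of deficient-diet Ttpa-/- mice and cerebellum of young wild-type mice, which differ in age, diet and genotype as well. Between these 2 groups 19 of 40 subunits were higher in the cortex, beside 23.3% of all genes, and 11 were lower, beside 20.9%, and Grin2b differed by 4.91 (SE 0.19, adjusted p = 1.1e-20 by limma).

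**Figure D1:**
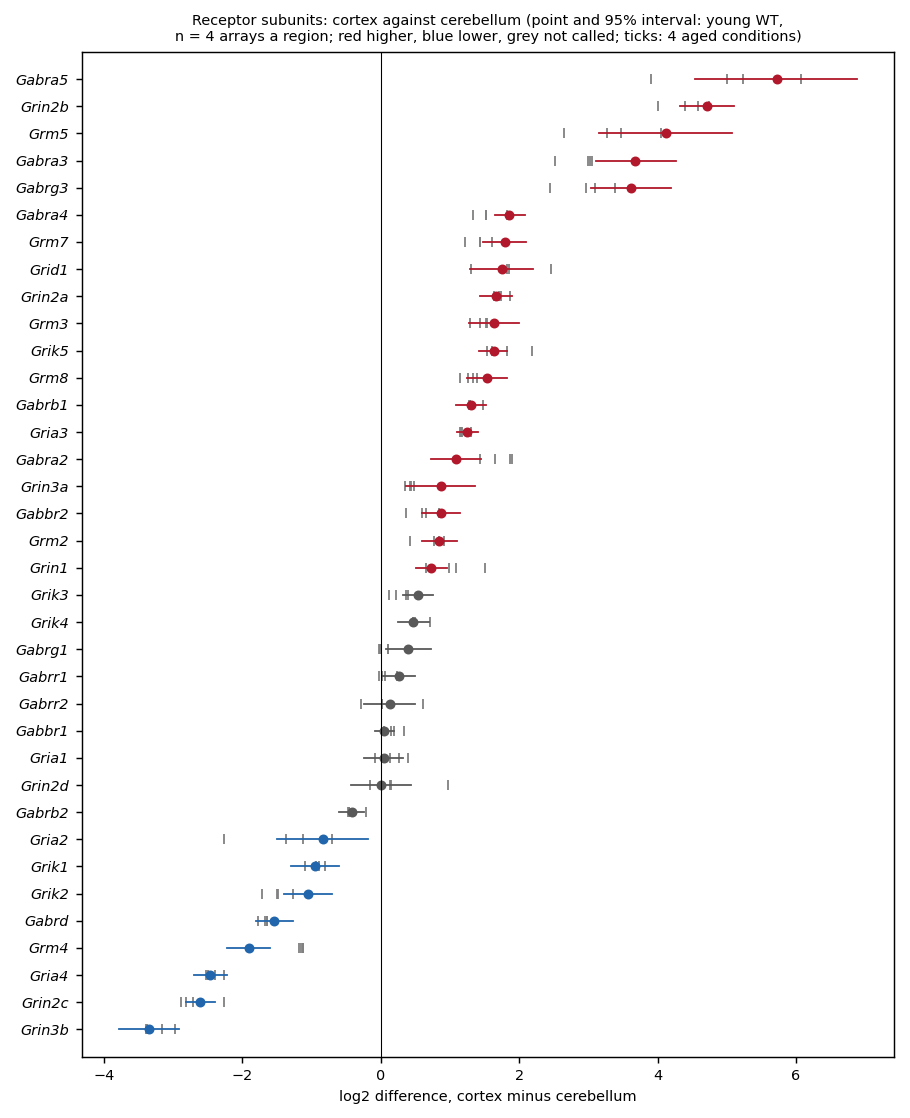
Difference in log2 signal between cortex and cerebellum for 36 of the tested receptor subunits. Points are the young wild-type difference with its 95% interval, and ticks are the differences in the 4 aged conditions; the values run from -3.35 (Grin3b) to 5.72 (Gabra5), and most ticks lie close to the young point.

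Among NMDA subunits the regions were sharply divided. Grin2b, the subunit of slow NMDA currents that prevails in the forebrain, had log2 signals of 2.40, 2.46, 2.30 and 2.02 in young cortex and of -3.10, -2.76, -2.13 and -1.72 in young cerebellum. Every cortical array was far above every cerebellar one, and the difference was 4.72 (26.4-fold, SE 0.19, adjusted p = 3e-20 by limma). Grin2c, the NMDA subunit known from mature granule cells, ran the other way, with 2.81, 2.66, 2.73 and 2.96 in the cortex and 5.58, 5.46, 5.29 and 5.25 in the cerebellum. The groups did not overlap, and the cortex was 6.09-fold lower (log2 difference -2.61, SE 0.10, adjusted p = 8.24e-21). Grin3b, a glycine-binding subunit known from motor neurons, had -5.06, -4.38, -4.77 and -3.95 in the cortex, where only 1 of 4 arrays was above background, and -1.07, -1.19, -1.43 and -1.07 in the cerebellum. The cortical arrays were all lower, by 3.35 on the log2 scale (SE 0.21, adjusted p = 4.49e-15), but it passed the filter through the cerebellum alone, and with normexp background correction the difference was -1.46, so that its size is not settled. In all, 4 of the 7 NMDA subunits were higher in the cortex, among them the obligate subunit Grin1 and the mature forebrain subunit Grin2a, and 2 were lower.

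AMPA and kainate subunits were mixed. Gria4, an AMPA subunit of fast kinetics that is known from granule cells and interneurons, had 2.20, 2.14, 2.25 and 2.37 in young cortex and 4.79, 4.74, 4.73 and 4.57 in young cerebellum. The groups were well apart, and the cortex was 5.53-fold lower (log2 difference -2.47, SE 0.12, adjusted p = 1.87e-18). Gria3 was higher in the cortex in each condition, by 1.15 to 1.31, and Gria1, which is carried by pyramidal cells and by Bergmann glia, was called in none, at -0.08 to 0.40. For Gria2, the subunit that keeps AMPA receptors closed to calcium, the 2 probes were called in opposite directions, at -0.84 and 1.82 in young mice, so that no direction is given for the gene. Among the 5 kainate subunits, Grik5, a high-affinity partner subunit, was higher in the cortex in all 5 conditions (1.53 to 2.18), Grik1 (-1.09 to -0.80) and Grik2 (-1.72 to -1.05) were lower in all 5, Grik3 was called in none and Grik4 in 1. The delta receptor Grid1 was higher in the cortex in every condition, by 1.31 to 2.46.

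Of the metabotropic glutamate receptors, Grm5, which couples to Gq, had 4.18, 4.25, 4.04 and 3.81 in young cortex and -1.93, -1.08, 1.05 and 1.78 in young cerebellum. The cortical arrays were even and the cerebellar ones widely spread, with no overlap, and the difference was 4.12 (17.3-fold, SE 0.47, adjusted p = 3.49e-09). Grm2 and Grm3, the group II receptors that couple to Gi, were both higher in young cortex, and Grm3 was so in all 5 conditions, by 1.29 to 1.64. In group III, which acts mainly on terminals, Grm7 and Grm8 were higher in the cortex in all 5 conditions (1.22 to 1.79 and 1.15 to 1.53). Grm4, known from the terminals of granule cells, had -0.04, 0.21, -0.01 and 0.43 in the cortex and 2.15, 2.17, 2.03 and 1.89 in the cerebellum. All cortical arrays were lower, by 1.91 on the log2 scale (3.77-fold, SE 0.16, adjusted p = 1.91e-12).

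Among the GABA-A alpha subunits, Gabra5, which is typical of extrasynaptic receptors in hippocampus and deep cortical layers, had 1.75, 1.45, 1.64 and 0.90 in young cortex and -6.65, -5.56, -2.85 and -2.07 in young cerebellum, where 2 of 4 arrays were above background. All cortical arrays were higher, with a difference of 5.72 (SE 0.58, adjusted p = 2.91e-10). It passed the filter through the cortex alone, and the size of this value rests on arrays below background. The difference was 3.88 with normexp background correction and 3.89 without replicates 1 and 2 of the young cerebellum, where that of Grin2b was 3.91 and 4.22, and in aged wild-type mice Gabra5 differed by 3.91 and Grin2b by 4.01. Gabra3, an alpha subunit of monoaminergic and cortical neurons, had 4.42, 4.18, 4.32 and 4.27 in the cortex and -0.11, 0.08, 1.22 and 1.25 in the cerebellum. The groups did not overlap and differed by 3.68 (12.8-fold, SE 0.28, adjusted p = 4.44e-13). Gabra4, a partner of the delta subunit in forebrain, had 1.92, 1.88, 1.83 and 2.13 in the cortex and -0.21, 0.10, 0.09 and 0.32 in the cerebellum. The cortex was higher throughout, by 1.86 (3.64-fold, SE 0.11, adjusted p = 2.46e-16). Gabra2 was higher in the cortex in all 5 conditions, by 1.08 to 1.89.

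Among the other GABA-A subunits, Gabrg3, a gamma subunit of the chromosome 7 cluster, had 1.44, 1.38, 1.28 and 1.37 in young cortex and -3.38, -2.94, -1.64 and -1.06 in young cerebellum. It was higher on all cortical arrays, by 3.62 (12.3-fold, SE 0.28, adjusted p = 8.03e-13). Gabrd, the delta subunit of tonic inhibition, had 3.65, 3.75, 3.70 and 4.36 in the cortex and 5.58, 5.49, 5.27 and 5.30 in the cerebellum. It was lower on all cortical arrays, by 1.54 on the log2 scale (2.91-fold, SE 0.13, adjusted p = 6.26e-12). Gabrb1 (1.27 to 1.48) was higher in the cortex in all 5 conditions. Gabrb2 (-0.48 to -0.22) and Gabrg1 (-0.02 to 0.39) were called in none. The GABA-B subunit Gabbr2 was higher in 4 of 5 conditions (0.37 to 0.87 over the 5) and its partner Gabbr1 in none (0.05 to 0.33). The rho subunit Gabrr1, known from the retina, was called in none (-0.03 to 0.26).

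**Figure D2:**
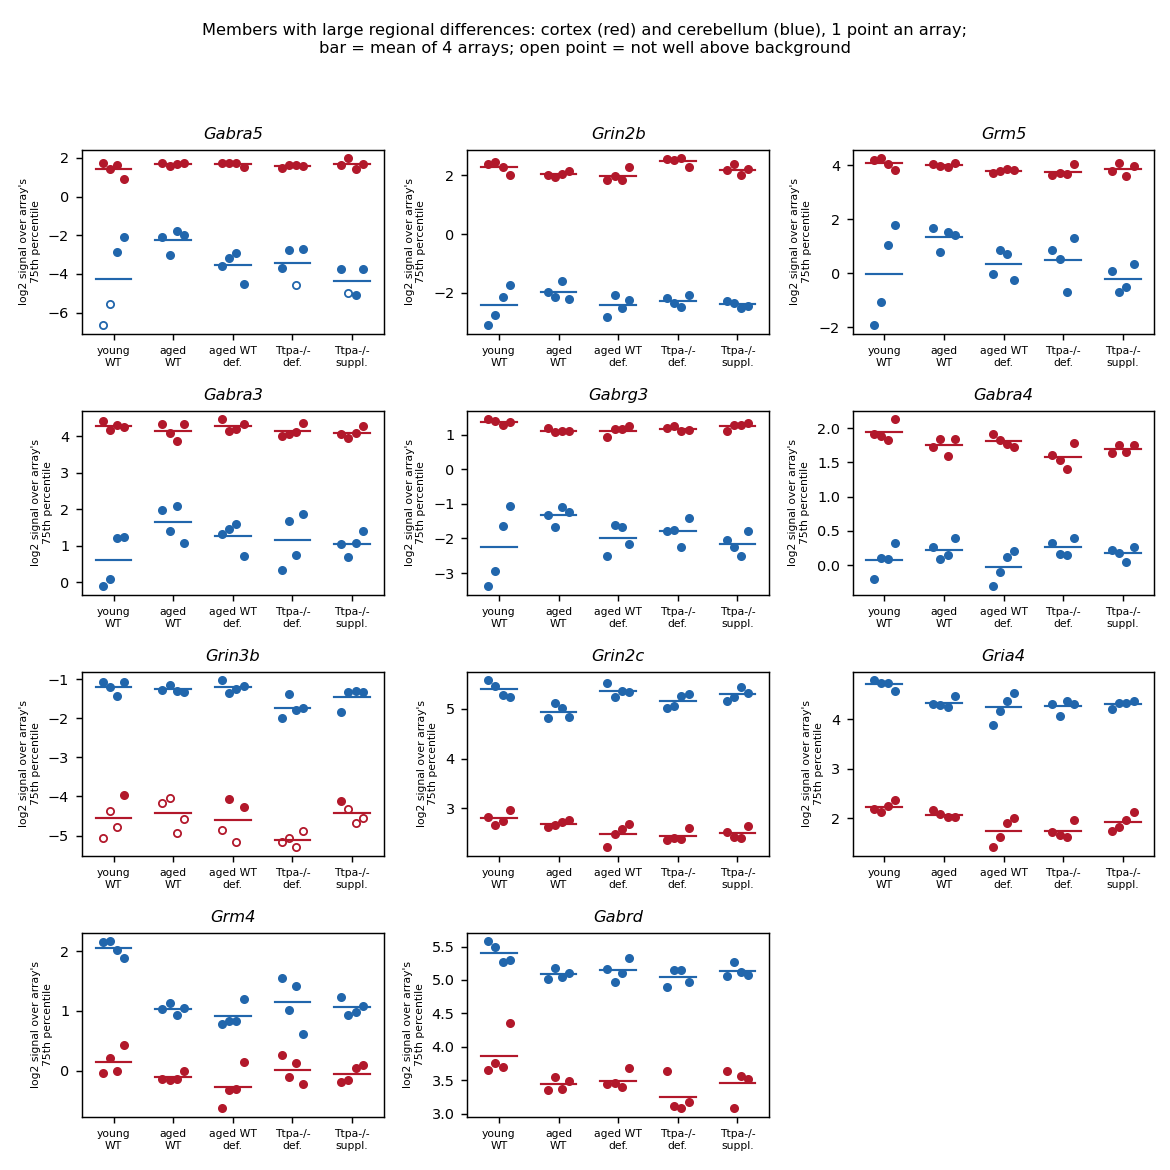
Log2 signal relative to the 75th percentile of the array for 11 receptor subunits on each of the 40 arrays, cortex in red and cerebellum in blue, across the 5 conditions. Open points were not well above background; in every panel the cortex and cerebellum arrays of each condition lie apart, and the blue points of Gabra5, Grm5, Gabra3 and Gabrg3 spread widely in young mice.

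The difference between regions was much the same set of genes in all conditions. In aged wild-type mice 19 subunits were higher in the cortex (15.9% of all genes) and 10 lower (16.5%), in deficient-diet wild-type mice 21 (20.7%) and 10 (21.5%), in deficient-diet Ttpa-/- mice 20 (20.2%) and 10 (21.1%), and in supplemented Ttpa-/- mice 17 (17.5%) and 9 (19.0%). The medians over the members were 0.44, 0.66, 0.54 and 0.40 in that order, beside 0.01, 0.02, -0.01 and -0.04 over all genes. Gria2 is among the 10 in the first 3 of these, and without it each is 9. In all 5 conditions the same 17 subunits were called higher in the cortex and the same 8 lower. Of these, 16 and 8 were called the same way within slide 3. The arrays of that comparison also entered the calls by which these genes were chosen, so that agreement was favoured beforehand. The share of all genes called the same way there is not given, and the agreement is not read as a check against slide. Together the 25 are 62.5% of the 40 members, beside 23.7% of all genes tested in all 5. Among the 17 were Grin1, Grin2a, Grin2b, Gria3, Grik5, Grid1, Grm3, Grm5, Grm7, Grm8, Gabra2, Gabra3, Gabra4, Gabra5, Gabrb1 and Gabrg3. Among the 8 were Grin2c, Grin3b, Gria4, Grik1, Grik2, Grm4 and Gabrd.

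The difference of Grin2b was 4.01 to 4.74 over the 5 conditions, that of Grin2c -2.89 to -2.26 and that of Gria4 -2.52 to -2.26. Gabra5 had the widest range of the 40, from 3.91 to 6.07, and Grm5 ran from 2.65 to 4.12. Grin3b was not well above background on any cortical array of aged wild-type or of deficient-diet Ttpa-/- mice, where the cortex was at least 7.96-fold (adjusted p = 2.36e-14) and at least 7.87-fold (adjusted p = 3.57e-15) lower. Without replicates 1 and 2 of the young cerebellum, 27 of the 40 subunits were still called in young mice, 19 higher and 8 lower, and the differences of Grm5 and Gabrg3 were 2.65 and 2.72. Where a gene had at least 2 tested probes (17 genes), all of them were called one way in young mice for 12, and only Gria2 had probes called in opposite directions.

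Proteins that work with these receptors differed by region as well, in lists that were chosen by function. Of 23 tested auxiliary subunits and organisers, 12 were higher in young cortex, led by the pentraxin Nptx2 (5.07) and the kainate receptor partner Neto1 (5.01), and 9 were lower, led by Cbln1 (-6.02), the granule cell ligand of delta receptors, and the AMPA partner Cacng5 (-2.75). Of 22 scaffold genes, 13 were higher, among them Dlgap2 (5.63) and Homer1 (2.26), and 1 was lower, Homer3 (-3.91). Of 16 genes of transmitter synthesis and uptake, 5 were higher, among them the glutamate transporters Slc1a1 (2.08) and Slc1a2 (2.07), and 5 were lower, among them Slc1a6 (-4.08), the transporter of Purkinje cells, and Slc1a3 (-1.20). Of the 5 tested receptor subunits that the symbols left out, the glycine receptor Glra2 was higher (1.81, adjusted p = 9.63e-06), and Gabra6, the alpha subunit of granule cells, was above background on 0 cortical arrays and at least 983-fold lower in young cortex.

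The effect of age was asked by comparing wild-type mice of 29 and 2 months on the normal diet. In the cortex, where both groups shared a slide, 0 of 39 subunits were called by limma, beside 2.25% of all genes, and the methods' t-test called 0 as well. At an unadjusted p under 0.05 there were 6, among them Gabbr2, Gabrd, Gabrr1, Grik2 and Grin2a, and all 6 were lower in aged mice. The share of all genes at this unadjusted threshold was not counted, here or in the comparisons below. Counts at that threshold are therefore not read as a result about the subunits. Differences ran from -0.52 to 0.24, with a median of -0.15 beside -0.02 over all genes, and the groups did not overlap for 8 of 39 members beside 14.5% of all genes. Gabbr2, without which GABA-B receptors do not signal, had 1.70, 2.06, 1.69 and 2.08 in young cortex and 1.28, 1.28, 1.54 and 1.36 in aged cortex. All aged arrays were lower, by 0.52 on the log2 scale (1.43-fold, SE 0.14, adjusted p = 0.0212), which is under the fold threshold. The kainate subunit Grik2 differed by -0.51 (adjusted p = 0.1) and was the only subunit called without replicate 4 of the young cortex (-0.68). Gabrd differed by -0.43 (adjusted p = 0.0584), and the highest differences were those of Gabra5 (0.24, adjusted p = 0.916), Gria1 (0.18) and Grin2d (0.14). In the same comparison Penk, Rgs9 and Adora2a, of 10 striatal genes, were lower, and the summed signal of that list was 79.7 to 99 in young and 45.2 to 58.2 in aged cortex. The astrocyte gene Gfap, the microglial C1qa and the blood gene Hbb-b2 were higher in aged cortex, where their lists summed to 83.3 to 91, 50.1 to 58.7 and 5.21 to 12.3, beside 67.2 to 82.5, 46.7 to 58.9 and 0.469 to 2.16 in young cortex. Their part in the lower subunit values was not tested.

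In the cerebellum 6 of 40 subunits were called between the same ages. Of these, 2 were lower in aged mice, beside 1.01% of all genes, and 4 were higher, beside 4.54%. The median was -0.06 over the members and 0.00 over all genes, and the groups did not overlap for 9 of 40 members beside 20.1% of all genes. Grm4, the presynaptic receptor of granule cell terminals, had 2.15, 2.17, 2.03 and 1.89 in young mice and 1.03, 1.13, 0.94 and 1.05 in aged mice. The groups were well apart, and the gene fell by 1.02 on the log2 scale (2.03-fold, SE 0.16, adjusted p = 1.81e-05), with the other probe at -1.55. Gabra2, a GABA-A alpha subunit, had 0.52, 0.51, 0.44 and 0.53 in young mice and -0.04, -0.25, -0.27 and -0.99 in aged mice. All aged arrays were lower, and it fell by 0.89 (1.85-fold, SE 0.18, adjusted p = 0.000852), called also by its other probe. Grin2c was lower by less than the fold threshold, at -0.45 (adjusted p = 0.00201), with no overlap. Young and aged cerebellum lay on different slides, which cannot be told apart from age.

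The 4 subunits called higher in aged cerebellum were those with widely spread young arrays. Gabra5 had -2.11, -3.03, -1.77 and -2.01 in aged mice, beside the young values of -6.65, -5.56, -2.85 and -2.07, and Grm5 had 1.68, 0.80, 1.52 and 1.42 beside -1.93, -1.08, 1.05 and 1.78. For both genes young replicates 1 and 2 were far below all aged arrays, and the others were near or among them. Gabra3 had 1.98, 1.41, 2.09 and 1.08 in aged mice, and Gabrg3 had -1.33, -1.67, -1.09 and -1.25. The same 2 young arrays were the lowest for these genes. The differences were 2.05 for Gabra5 (SE 0.58, adjusted p = 0.0174), 1.40 for Grm5 (SE 0.47, adjusted p = 0.0485), 1.03 for Gabra3 (SE 0.28, adjusted p = 0.0143) and 0.92 for Gabrg3 (SE 0.28, adjusted p = 0.0319), and the groups overlapped in each case, with exact two-sided permutation p of 0.171, 0.257, 0.0857 and 0.257. Without young replicates 1 and 2 they were 0.23, -0.06, 0.40 and 0.01, none of them called, whereas Grm4 (-0.92) and Gabra2 (-0.87) kept their calls. Only Grm4 and Gabra2 were called without young replicate 1, without young replicate 2 or without aged replicate 3. Gabra5 was the only one of the 4 called without aged replicate 1 and Gabra3 the only one without aged replicate 4. The values in those fits were 1.26, 1.63, 1.90 and, without aged replicate 4, 1.98 for Gabra5, and 0.79, 0.85, 0.88 and, without aged replicate 1, 0.92 for Gabra3. Without young replicate 1 or 2, or aged replicate 1, 3 or 4, Grm5 stood at 0.77, 1.05, 1.29, 1.34 and 1.38, and Gabrg3 at 0.54, 0.69, 0.91, 0.84 and 0.89. Of the other Grm5 probes, 1 was called at 1.39 and 1 stood at -0.26. The calls of Grm5 and Gabrg3 were lost with scaling to the median or with no filter on dim probes. Without young replicate 4 the calls numbered 8, with Gabrg1 and Grin2b added.

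The summed signal of genes from neighbouring regions moved with these 4 subunits. A list of midbrain and brainstem neuron genes, chosen after these values were seen, had 8 of its 10 genes on the array, and 5 of 6 tested were higher in aged mice (Slc17a6, Gata3, Pou4f1, Pax7 and Th). Its summed signal was 3.45, 3.29, 7.53 and 9.49 on the young arrays and 8.46 to 12 on the aged ones. Slc17a6, the vesicular glutamate transporter of brainstem and deep nuclei, had -5.17, -1.93, 1.99 and 2.63 in young mice and 2.30, 1.53, 2.32 and 2.09 in aged mice. Young replicates 1 and 2 had the lowest summed signal and the least Slc17a6, Gata3 and Pou4f1. They also had the least Gabra5, Grm5, Gabra3 and Gabrg3. Th, with 1.52, 1.29, 1.42 and 1.08 on the young arrays, did not follow this order. Chat differed little among them (-1.11, -1.01, -0.86 and -0.96), and Pax7 was above background on 0 of them. Choroid plexus genes were summed to 246, 32.1, 11.5 and 8.50 on the young arrays and to 5.38 to 6.20 on the aged ones, and 5 of 6 microglial, 2 of 6 astrocyte, 3 of 4 blood and 3 of 8 tested striatal genes were higher in aged mice, beside 0 of 9 granule cell and 0 of 7 Purkinje cell genes called. Their part in the subunit results was not tested.

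**Figure D3:**
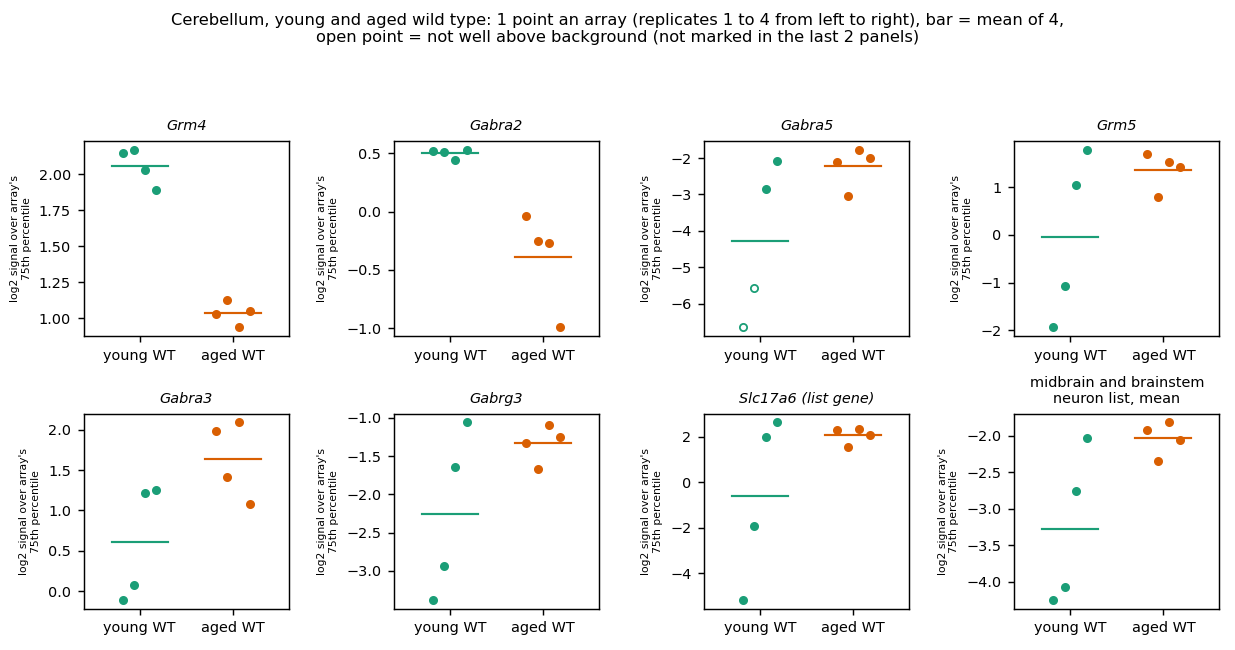
Log2 signal on each cerebellar array of young and aged wild-type mice for 6 receptor subunits, for Slc17a6 and for the mean of the midbrain and brainstem genes. Grm4 and Gabra2 are lower on all 4 aged arrays, and in the other panels 2 young arrays lie below the rest.

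In the wider pathway, few genes were called between the ages. In the cortex 0 genes of the 4 lists of receptor partners were called by limma. In the cerebellum Kctd16, an auxiliary subunit of GABA-B receptors (1.17, adjusted p = 0.0461), the scaffold Homer2 (0.63, adjusted p = 0.00011) and Slc17a6 (2.68, adjusted p = 0.0418) were higher in aged mice, and none was lower. The Slc17a6 value rests on young replicates 1 and 2 (-5.17 and -1.93, beside 1.99 and 2.63 on replicates 3 and 4). Slide cannot be told apart from age in the cerebellum. The ageing effect differed between cortex and cerebellum for 0 of 40 subunits by limma, beside 1.61% of all genes, with 10 at an unadjusted p under 0.05. The cortical effect minus the cerebellar one was highest for Grm4 (0.77, adjusted p = 0.0688), Gabra2 (0.57, adjusted p = 0.35) and Gria1 (0.36), and lowest for Gabra5 (-1.81, adjusted p = 0.361), Grm5 (-1.46, adjusted p = 0.36) and Gabrg3 (-1.17, adjusted p = 0.165). Without replicate 4 of the young cortex Grm4 was called in this test (0.86), and without replicate 4 of the young cerebellum Gabra5 (-2.54), Grm5 (-2.07), Gabrg3 (-1.57), Grm4 (0.82) and Grin2b were.

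For oxidative stress, deficient-diet Ttpa-/- mice were set against the aged wild type fed normally. In the cortex 3 of 39 subunits were higher in the Ttpa-/- mice, beside 3.20% of all genes, and 0 were lower, beside 1.71%. The median was -0.08 over the members and -0.04 over all genes, and the groups did not overlap for 8 of 39 members beside 24.7% of all genes. Grin1, the subunit every NMDA receptor contains, had 3.83, 3.58, 3.59 and 3.03 in Ttpa-/- mice and 2.84, 2.94, 2.87 and 2.93 in wild-type mice. All Ttpa-/- arrays were higher, replicate 4 by little, and the gene rose by 0.61 (1.53-fold, SE 0.11, adjusted p = 0.000431), with the other probe at 0.64 (adjusted p = 0.0914). Grik5 had 3.94, 3.88, 3.85 and 3.48 in Ttpa-/- mice and 3.17, 3.18, 3.14 and 3.27 in wild-type mice. The groups did not overlap, and it rose by 0.59 (1.51-fold, SE 0.10, adjusted p = 0.000221). Grin2d, an NMDA subunit of interneurons and early development, had -2.54, -2.46, -2.56 and -3.67 in Ttpa-/- mice and -3.47, -3.97, -3.27 and -3.47 in wild-type mice. Here replicate 4 lay within the wild-type arrays, and the difference was 0.74 (1.67-fold, SE 0.21, adjusted p = 0.0143, exact two-sided permutation p = 0.114). Grid1, with -0.67, -0.52, -0.61 and -1.34 against -1.26, -1.72, -1.46 and -1.10 (difference 0.60, adjusted p = 0.0558), was not called, and Grm7 (-0.44, adjusted p = 0.0471) was under the fold threshold. Gabra2 (-0.41, adjusted p = 0.109) and Grm3 (-0.37, adjusted p = 0.135) were the next lowest.

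Replicate 4 of the deficient-diet Ttpa-/- mice stood apart in both regions. Car8, a Purkinje cell gene on the chromosome of Ttpa, had -5.71, -4.61, -7.13 and -3.32 in the cortex of these mice and 1.56, 1.44, 1.77 and 3.65 in their cerebellum, beside 4.59 to 4.79 in aged wild-type cerebellum. Ttpa was low on its arrays of both regions, at -6.73 and -6.34. In the cortex, probes rich in GC were shifted against probes poor in GC by 0.35, 0.18, 0.23 and -0.05 on the 4 arrays of this group, and by -0.12 to 0.09 on the other 16 cortical arrays. The median difference from aged wild-type cortex was 0.15 for the GC-rich probes and -0.12 for the GC-poor ones, and 5.92% and 1.53% of them were called higher. The Grin1 probe had 55% GC, those of Grik5 50% and of Grin2d 45%.

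With a correction for probe GC, added after these values were seen, only Grin2d kept its call at 0.74, and Grin1 was at 0.48 and Grik5 at 0.51. Without Ttpa-/- replicate 4 the differences of Grin1, Grik5 and Grin2d were 0.77, 0.70 and 1.03, all called, with Grid1 at 0.78. With normexp background correction Grin2d was not called. Grin1 lost its call without Ttpa-/- replicate 1 (0.50), Grik5 without wild-type replicate 3 (0.58) or Ttpa-/- replicate 1 (0.54), 2 (0.56) or 3 (0.57), and Grin2d without wild-type replicate 2 (0.59) or Ttpa-/- replicate 1 (0.65), 2 (0.62) or 3 (0.65). In the same comparison Slc17a7 was higher, the only 1 of 8 cortical projection neuron genes called, as were Drd2 and Ppp1r1b of 10 striatal genes. Car8, Prox1 and Lct were lower. The part of probe GC, of these markers and of the slide in the subunit results was not tested beyond these values, and slide and group cannot be told apart.

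**Figure D4:**
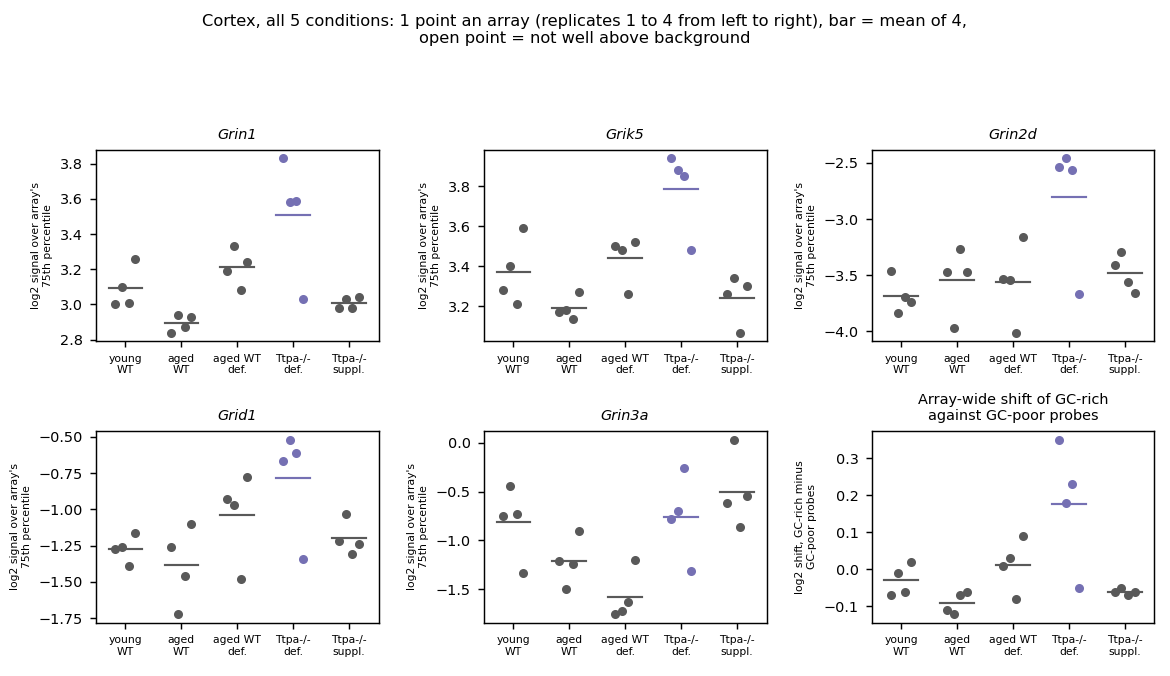
Log2 signal on each of the 20 cortical arrays for Grin1, Grik5, Grin2d, Grid1 and Grin3a, and the shift of GC-rich against GC-poor probes, across the 5 conditions. Replicates 1 to 3 of the deficient-diet Ttpa-/- mice are above aged wild-type mice for Grin1, Grik5 and Grin2d and in the shift (0.18 to 0.35), and replicate 4 is the lowest of its group in each of these 4 panels.

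The other cortical comparisons separate diet from genotype in part, and they share groups with the one above. Between deficient-diet wild-type mice and wild-type mice on the normal diet, 0 of 39 subunits were called by limma and 0 by the methods' t-test, beside 0.174% of all genes, with 8 at an unadjusted p under 0.05. The leading differences were Gabra2 at -0.58 (adjusted p = 0.116), Grm3 at -0.51 (adjusted p = 0.154) and Grm7 at -0.41 (adjusted p = 0.2), with Grid1 at 0.34, Grin1 at 0.31 and Grik5 at 0.24 on the other side. Gabra2 and Grm3 were called without replicate 4 of the deficient-diet mice (-0.67 and -0.70). Between supplemented Ttpa-/- and aged wild-type mice, 0 were called by limma, beside 0.104% of all genes, with 2 at an unadjusted p under 0.05 and 1 by the methods' t-test (Grin3a, 0.71, adjusted p by limma = 0.293). Gria2 was at 0.49, Grik2 at 0.20, Gabra2 at -0.39 (adjusted p = 0.529), Grin2c at -0.19 and Grm3 at -0.18. The medians over the members were -0.05 and -0.01, beside 0.01 and 0 over all genes.

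Where both genotypes ate the deficient diet, 2 of 39 subunits were higher in the cortex of Ttpa-/- mice, beside 1.33% of all genes. Grin3a, an NMDA subunit that lowers calcium entry, had -0.78, -0.70, -0.26 and -1.31 in Ttpa-/- mice and -1.75, -1.72, -1.63 and -1.20 in wild-type mice. The lowest Ttpa-/- array was within the wild-type range, and the difference was 0.82 (adjusted p = 0.0239, exact two-sided permutation p = 0.0571). Grin2d differed by 0.75 (adjusted p = 0.0189). Neither was called without wild-type replicate 3 (Grin2d 0.60, Grin3a 0.80) or without Ttpa-/- replicate 1 (0.66 and 0.82), 2 (0.64 and 0.80) or 3 (0.67 and 0.65), and Grin3a was lost without wild-type replicate 1 (0.76) or 2 (0.77). Both calls were lost with scaling to the median, and that of Grin2d also with quantile normalization or normexp background correction. GC-rich probes had a median of 0.10 in this comparison beside -0.07 for GC-poor ones, and Car8 was lower. Grin2b was the next highest (0.49, adjusted p = 0.0787), and Gabrd (-0.23), Gabra4 (-0.22) and Gabbr2 (-0.17) the lowest. The median was -0.02 over the members and over all genes.

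Between the diets of Ttpa-/- mice, deficient against supplemented, Grin2d was the 1 cortical subunit called, higher on the deficient diet by 0.67 (adjusted p = 0.0316), beside 2.14% of all genes higher. It was lost without deficient-diet replicate 1 (0.58), 2 (0.55) or 3 (0.59) or supplemented replicate 3 (0.64) or 4 (0.61), and it was not called with scaling to the median, with normexp background correction or with no filter on dim probes. Grin2d kept this call in 8 of 19 alternatives, not counting the correction for probe GC. In the same comparison Slc17a7 was higher, the only 1 of 8 cortical projection neuron genes called, and Lct and Mobp, of the hippocampal and oligodendrocyte lists, were lower. The median was 0.14 for GC-rich and -0.10 for GC-poor probes, of which 3.64% and 1.02% were called higher, and the part of these in the result was not tested. Grik5 (0.54, adjusted p = 0.000913) and Grin1 (0.50, adjusted p = 0.00368) were under the fold threshold, and Gria2 (-0.44), Grm7 (-0.36) and Grin3a (-0.26) were the lowest. Without deficient-diet replicate 4, Grin2d, Grik5 and Grin1 were called. Between supplemented Ttpa-/- and deficient-diet wild-type mice, which shared a slide, 0 were called by limma, beside 0.0281% of all genes, with 6 at an unadjusted p under 0.05, all higher in Ttpa-/- mice, and 1 by the methods' t-test (Grin3a). Grin3a had -0.62, 0.03, -0.86 and -0.55 in those Ttpa-/- mice, all above the deficient-diet wild-type arrays given above, and differed by 1.08 (adjusted p = 0.0964). It was called without wild-type replicate 4 (1.2). Gria2 was at 0.78 (adjusted p = 0.448), Grik1 at 0.45, Grin1 and Grik5 at -0.20 and Gabra3 at -0.18. The medians over the members were -0.08 for the diets of Ttpa-/- mice and 0.06 for the last comparison, beside -0.03 and -0.02 over all genes.

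In the cerebellum, deficient-diet Ttpa-/- mice had 1 of 40 subunits lower than aged wild-type mice, beside 1.56% of all genes, and none higher. Of 61 subunit probes tested, 2 were called lower and 1 higher, the last not the brightest of its gene. Gabra2 had -1.11, -1.38, -0.91 and -0.66 in Ttpa-/- mice, beside -0.04, -0.25, -0.27 and -0.99 in wild-type mice. Only wild-type replicate 4 was within the Ttpa-/- range, and the difference was -0.63 (SE 0.18, adjusted p = 0.019, exact two-sided permutation p = 0.0857). The call was lost without wild-type replicate 1 (-0.51), 2 (-0.58) or 3 (-0.59) or Ttpa-/- replicate 2 (-0.51), with scaling to the median or with normexp background correction. Gabrr2 (0.44, adjusted p = 0.1) and Gabrr1 (0.32, adjusted p = 0.0697), rho subunits that are neighbours on chromosome 4, were not called, and neither were Grin3a (0.37), Gabra5 (-1.20, adjusted p = 0.171) and Grm5 (-0.87, adjusted p = 0.228). The median was -0.07 over the members and -0.01 over all genes. Gfap, Aif1, C1qa, Mbp, Mag and Car8 were lower and Th higher in the same comparison, and their part was not tested.

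Between supplemented Ttpa-/- and aged wild-type mice, 3 cerebellar subunits were lower, beside 1.63% of all genes. Gabra5 had -3.74, -4.96, -5.09 and -3.75 in Ttpa-/- mice, with 3 of 4 arrays above background, and -2.11, -3.03, -1.77 and -2.01 in wild-type mice. All Ttpa-/- arrays were lower, and the gene fell by 2.15 (SE 0.58, adjusted p = 0.0115). It passed the filter through the wild-type group alone. The difference was -2.42 to -1.09 over the alternatives, the last with normexp background correction and not counting the correction for probe GC. Grm5 had 0.08, -0.70, -0.52 and 0.33 in Ttpa-/- mice and 1.68, 0.80, 1.52 and 1.42 in wild-type mice. The groups did not overlap, and it fell by 1.55 (SE 0.47, adjusted p = 0.0232), with its other probes at -1.76 and 0.07. It was -0.03 and not called as the median over its probes, and its call was also lost with scaling to the median. Gabra2 had -0.95, -1.23, -1.1 and -0.81 in Ttpa-/- mice, overlapping with 1 wild-type array, and differed by -0.63 (adjusted p = 0.0163). Grm5 lost its call without wild-type replicate 1 (-1.45) or 3 (-1.50) or Ttpa-/- replicate 2 (-1.39) or 3 (-1.45), and Gabra2 without wild-type replicate 1 (-0.52) or Ttpa-/- replicate 2 (-0.57) or with normexp background correction. Gabrg3 (-0.81, adjusted p = 0.0517), Grin3a (0.58, adjusted p = 0.105) and Gabrr2 (0.36) were not called by limma, and Grin2c (0.36, adjusted p = 0.0151) was under the fold threshold. The median was -0.05 over the members and -0.01 over all genes.

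Of the midbrain and brainstem genes, 3 of 6 tested were lower in Ttpa-/- mice (Gata3, Pou4f1 and Pax7), as Gabra5 and Grm5 were. The list had a summed signal of 7.79 to 9.41 against 8.46 to 12. Th and Chat of the same list did not fall. Th had 2.38, 3.03, 3.07 and 2.66 in Ttpa-/- mice and 2.14, 2.23, 1.97 and 2.69 in wild-type mice. Car8 and Nrn1 were lower as well. Their part in the fall of Gabra5 and Grm5 was not tested, and slide and group cannot be told apart.

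The deficient diet alone was compared between wild-type mice within a slide, and 2 of 40 cerebellar subunits were lower on it, beside 0.855% of all genes. Grm7, a presynaptic group III receptor, had -0.10, 0.21, 0.57 and 0.66 on the deficient diet and 0.84, 0.83, 1.04 and 0.97 on the normal diet. All deficient-diet arrays were lower, by 0.59 on the log2 scale (1.50-fold, SE 0.16, adjusted p = 0.0286). Grm3, a group II receptor of glia and neurons, had -1.19, -0.99, -0.76 and -0.32 against -0.23, -0.39, -0.07 and -0.13. A single deficient-diet array overlapped, and the difference was -0.61 (adjusted p = 0.0421, exact two-sided permutation p = 0.0571). Neither was called without normal-diet replicate 1 (Grm7 -0.61, Grm3 -0.62), 3 (-0.55 and -0.56) or 4 (-0.57 and -0.59) or without deficient-diet replicate 1 (-0.44 and -0.48) or 2 (-0.55 and -0.55). Both calls were lost with normexp background correction, that of Grm7 with quantile normalization and that of Grm3 with no filter on dim probes. Grin2c (0.43, adjusted p = 0.0164) was under the fold threshold, and Gria2 (0.86, adjusted p = 0.115), Grik2 (0.45, adjusted p = 0.127), Gabra5 (-1.32, adjusted p = 0.182), Grm5 (-1.03, adjusted p = 0.197) and Gabrg3 (-0.65, adjusted p = 0.18) were not called. Mag and Pax7 were the marker genes lower in this comparison, and their part was not tested. The median was -0.15 over the members and -0.02 over all genes.

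Against deficient-diet wild-type mice, Gabrr2 and Grin3a were higher in the cerebellum of both Ttpa-/- groups. Gabrr2, a rho subunit, had 0.39, 0.16, 0.73 and 0.47 in those wild-type mice, 1.14, 1.50, 1.29 and 1.20 in deficient-diet Ttpa-/- mice, and 1.27, 1.51, 0.88 and 1.17 in supplemented Ttpa-/- mice. Both Ttpa-/- groups were above all 4 wild-type arrays, by 0.85 (1.8-fold, SE 0.18, adjusted p = 0.00196) and by 0.77 (adjusted p = 0.00629). Grin3a had -2.32, -1.96, -2.12 and -1.60 in the wild-type mice, -1.31, -0.73, -0.83 and -1.89 on the deficient diet, and -0.73, -0.92, -1.13 and -1.15 on the supplemented diet. Replicate 4 of the deficient-diet Ttpa-/- mice was within the wild-type range, with a difference of 0.81 (SE 0.24, adjusted p = 0.0243, exact two-sided permutation p = 0.0571), and the supplemented group was wholly above it, with a difference of 1.01 (adjusted p = 0.00727).

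By the brightest probe these were the only calls among the 40 subunits, beside 3.36% of all genes higher on the deficient diet and 3.28% on the supplemented one. Of 61 subunit probes tested for deficient-diet Ttpa-/- mice, 3 were called higher and 2 lower. The 2 lower probes were not the brightest of their genes, and 3 subunits had only part of their probes called. The 2 comparisons share the wild-type arrays, and the aged wild type fed normally had 0.95, 0.45, 0.72 and 1.24 for Gabrr2. The deficient-diet difference of Grin3a lost its call without wild-type replicate 1 (0.70) or 3 (0.77) or Ttpa-/- replicate 2 (0.66) or 3 (0.69) or with normexp background correction, and without wild-type replicate 4 Grik1 and Grm7 were called as well against the supplemented group. The next values were 0.45 for Grik1 (adjusted p = 0.072), -0.54 for Gria2, -0.53 for Grik2 (adjusted p = 0.0407, under the fold threshold) and -0.52 for Grin3b (adjusted p = 0.101) on the deficient diet, and 0.51 for Grm7 (adjusted p = 0.0403, under the fold threshold), -0.83 for Gabra5, -0.78 for Gria2 (adjusted p = 0.142) and -0.52 for Grm5 on the supplemented one. The medians were 0.08 and 0.06 over the members, beside 0.01 and 0.00 over all genes. Car8 was lower in both comparisons and the microglial gene P2ry12 higher on the deficient diet, and their part was not tested.

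Between the 2 diets of Ttpa-/- mice, within a slide, 0 of 39 cerebellar subunits were called by limma or by the methods' t-test, beside 0.346% of all genes, with 2 at an unadjusted p under 0.05 (Gabbr2 and Grik3, both lower on the deficient diet), and the groups overlapped for all of them, beside 5.32% of all genes without overlap. Differences ran from -0.31 (Gabbr2), -0.30 (Grik2) and -0.28 (Grik3) to 0.24 (Gria2), 0.35 (Gabrg3) and 0.69 (Grm5, adjusted p = 0.649), with a median of -0.02 beside 0 over all genes.

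**Figure D5:**
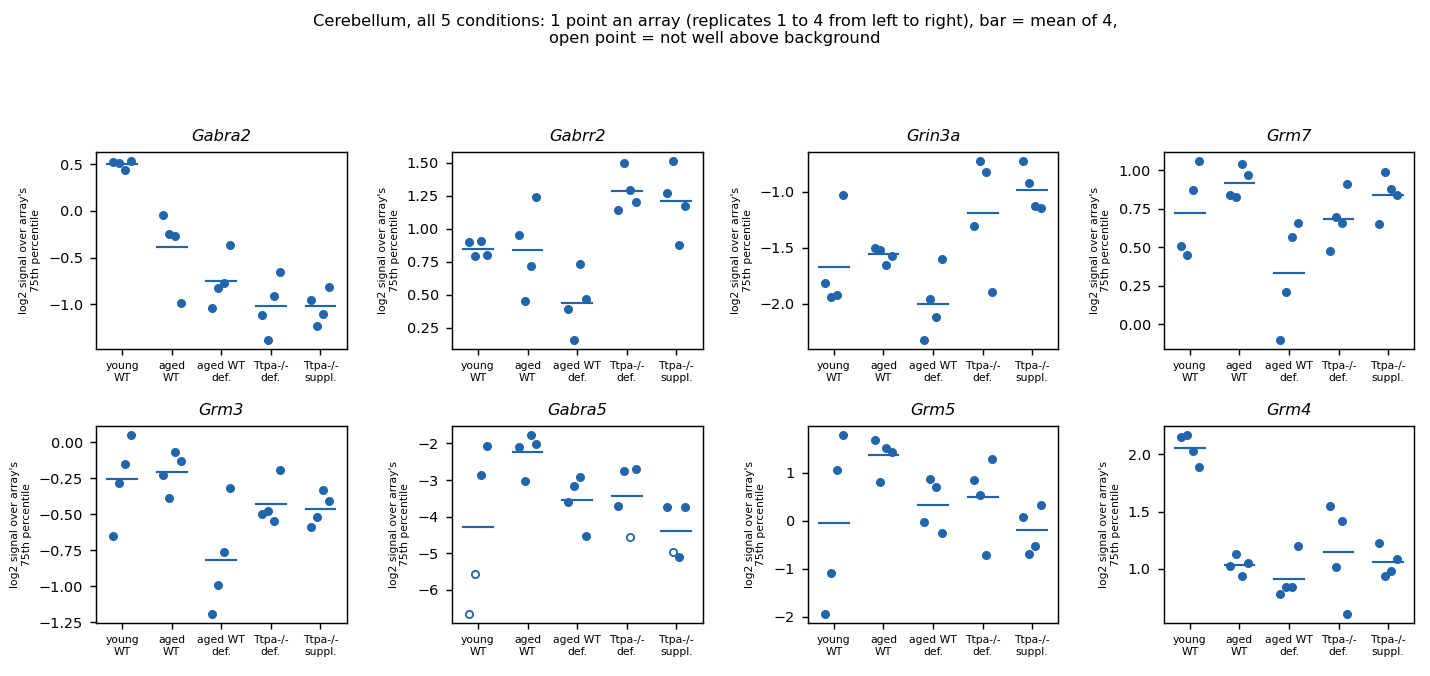
Log2 signal on each of the 20 cerebellar arrays for 8 receptor subunits across the 5 conditions. Gabrr2 and Grin3a are lowest in deficient-diet wild-type mice, Grm7 and Grm3 are lower there than on the normal diet, Gabra5 and Grm5 are lower in supplemented Ttpa-/- than in aged wild-type mice, and Gabra2 is highest in young mice.

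Whether the effect of the deficient-diet Ttpa-/- condition differed between the regions was tested as an interaction. The cortical effect minus the cerebellar one was called above 0 for 4 of 40 subunits, beside 1.60% of all genes. For Grin1 the cortical rise of 0.61 stood against cerebellar means of 2.00 in Ttpa-/- and 2.25 in wild-type mice, and the difference of the 2 effects was 0.86 (SE 0.16, adjusted p = 0.00198). For Grik5 it was 0.65 (SE 0.14, adjusted p = 0.00627), with cerebellar means of 1.61 and 1.67. For Grin2d it was 1.13 (SE 0.30, adjusted p = 0.02), with cerebellar means of -3.78 and -3.38, and for Grid1 it was 1.15 (SE 0.31, adjusted p = 0.0239), with cerebellar means of -3.24 and -2.69. None of the 4 was called in the cerebellum alone, but part of each value comes from a lower cerebellar mean in Ttpa-/- mice. Each of the groups compared lay on a different slide, which cannot be told apart from these effects. Gabra5 (1.1), Gria1 (-0.48), Grin2c (-0.46, adjusted p = 0.0409, under the fold threshold) and Grik1 (-0.29) were not called.

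Corrected for probe GC, Grin1 (0.69), Grin2d (1.1) and Grid1 (0.98) kept the call and Grik5 (0.54) did not. Without cortical replicate 4 of the Ttpa-/- mice the values were 1.02 for Grin1, 0.75 for Grik5, 1.42 for Grin2d and 1.34 for Grid1, all called. With scaling to the median only Grin1 was called. Without cerebellar replicate 4 only Grin1 (0.75) was called, with Grik5 at 0.58, Grin2d at 1.03 and Grid1 at 0.96. Without wild-type cortical replicate 2, or Ttpa-/- cortical replicate 1, 2 or 3, Grin1 and Grik5 were called, and Grin2d (0.99 to 1.05) and Grid1 (1.04 to 1.11) were not.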

How the data were processed

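Every array came as the scanner's output of 1 spot a line, which the authors made with Feature Extraction (version 10.7.3.1 per the file headers, 10.1.1.1 in the submitters' processing notes). The deposited processed signal is an intensity from which the array's own background was taken, without scaling across arrays, and the deposited mean and background signals are raw intensities. Other deposited values are flags of 0 or 1. The authors also deposited log2 values. Set against the intensities, these proved to be the log2 signal minus the 75th percentile of it, centred by probe (median absolute deviation from it 0.00085). The methods name global normalization, R and a fold change over 1.5. Gene names and positions (mm9) are those of the array's design.

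Flagged spots (95 to 148 an array) were left out, spots of a probe averaged, and log2 signals scaled by subtracting the log2 75th percentile of the array, with R 4.3.3 and its data.table package (version 1.17.8). The 40 arrays were fitted in limma 3.58.1 as 10 group means without a block, and 19 comparisons of 2 groups and 2 interactions were tested. Benjamini-Hochberg adjustment covered the probes that passed the background flag on each of the 4 arrays of 1 compared group or more. The exact permutation test over 4 against 4 arrays cannot go below p = 0.0286. A gene was represented by its brightest probe on average. Values per array are given for subunits called in a comparison of age, diet or genotype or in an interaction, and for the 6 highest and 6 lowest called differences between the regions of young mice. In each other comparison the 3 highest and 3 lowest tested subunits are named, called or not, and of each pathway list the 2 largest called changes each way. A few genes within this rule, although counted, are not reported here by name. The members and the gene lists were chosen with earlier results of these data known, and the list of midbrain and brainstem genes after the values shown here were seen. The number of arrays limits the precision. The design text gives 4 mice a group, and the regions were compared as independent samples. In the region comparison of deficient-diet Ttpa-/- mice, same-numbered arrays deviated together (r = 0.18, 0.46, 0.18 and 0.63 over 24803 probes), and in no other comparison did all 4 pairs exceed r = 0.1. RefSeq of GRCm38.p6 held the symbols of all 44 genes and the transcripts of 66 of the 69 probes under the same symbol. The scripts were tested on simulated data. Alternatives covered scaling, background correction, the filter, the fold threshold, the samples fitted, the pairing block, the probe rule, the methods' t-test and leaving out arrays. A slide block was not run, since each group lay on 1 slide.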

Additional observations from a re-analysis of the deposited data

Results flagged for a closer look

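In 2 groups an array of Grin2d lay far from the other 3, of 46 groups of 4 arrays examined over 14 subunits, where chance flags about 1 in 20. Both were replicate 4 of the deficient-diet Ttpa-/- mice. In the cortex it stood at -3.67, beside -2.54, -2.46 and -2.56, and in the cerebellum at -4.07, beside -3.69, -3.69 and -3.66.

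The effect of the deficient-diet Ttpa-/- condition against aged wild-type mice differed between cortex and cerebellum, by limma's interaction test, for Grid1, Grik5, Grin1 and Grin2d. As the cortical effect minus the cerebellar one, the values were 1.15, 0.65, 0.86 and 1.13 in that order, on the log2 scale. Over 25 alternatives the values were 0.62 to 1.34 for Grid1, 0.58 to 0.75 for Grik5, 0.75 to 1.02 for Grin1 and 0.61 to 1.42 for Grin2d, and they kept their calls in 17, 23, 24 and 18 of these. The correction for probe GC is not among the 25. With it the values of Grin1 and Grik5 were below these ranges, and Grik5 lost its call.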

How the results depend on the processing

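Counts of called subunits between the regions were within 1.5 times of those reported, in each of the 5 conditions, under every alternative run. In the values that follow, "deficient" and "supplemented" are the diets and the main counts are those of the report. Shares of all genes under the alternatives are not given, and the counts are not read as results about the subunits. Scaling to the median gave 2 calls for Ttpa-/- deficient against supplemented (Grik5 and Grin1, without Grin2d) and 0 for Ttpa-/- against wild type, both deficient, in the cortex. In the cerebellum it gave 0 for deficient Ttpa-/- against aged wild type, 4 for each Ttpa-/- group against deficient wild type, and 4 for ageing (2 higher and 2 lower). It gave 1 for the interaction of that Ttpa-/- effect with region, and it moved the median of all genes to -0.19 for the deficient diet in wild-type cerebellum. Quantile normalization gave 1 for both genotypes deficient in the cortex and 1 for the deficient diet in wild-type cerebellum. Normexp background correction gave 0 for the diets of Ttpa-/- and 1 for both genotypes deficient in the cortex, 0 for deficient Ttpa-/- against aged wild type, 0 for the diet in wild type and 1 for both genotypes deficient in the cerebellum, and 1 for the interaction of age and region. Without the filter on dim probes there were 2 calls for the diets of Ttpa-/- cortex (Gabrq and Grin3b, both dim there, without Grin2d) and 1 for the diet in wild-type cerebellum.

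With the adjusted p alone and no fold threshold, calls numbered 1 for ageing, 7 for deficient Ttpa-/- against aged wild type and 4 for the diets of Ttpa-/- in the cortex. In the cerebellum they numbered 11 for ageing, 3 and 6 for deficient and supplemented Ttpa-/- against aged wild type, 4 for the diet in wild type, and 6 and 4 for the 2 Ttpa-/- groups against deficient wild type. The share of all genes at this looser threshold is not given, so that these counts cannot be set against it. Fitted on the arrays of the compared groups alone, calls in the cortex numbered 1 for deficient Ttpa-/- against aged wild type and 0 for the diets of Ttpa-/- and for both genotypes deficient. In the cerebellum they numbered 2 for ageing, 0 for deficient Ttpa-/- against aged wild type, 0 for the diet in wild type, and 1 and 0 for the 2 Ttpa-/- groups against deficient wild type, and each interaction had 1. The methods' t-test without adjustment gave 1 for supplemented Ttpa-/- against each wild-type group, 0 for the diets of Ttpa-/- and 1 for both genotypes deficient in the cortex, and 2 for ageing, 0 for deficient Ttpa-/- against aged wild type and 6 for the diet in wild type in the cerebellum. With Benjamini-Hochberg adjustment it gave 1 for deficient Ttpa-/- against aged wild type and 0 for the diets and for both genotypes deficient in the cortex. In the cerebellum it gave 1 for ageing and 0 for deficient Ttpa-/- against aged wild type, for the diet in wild type and for both Ttpa-/- groups against deficient wild type.

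The median over a gene's probes gave 2 for the interaction of age and region and -0.23 for Grm5 in the ageing cerebellum. A correction for probe GC, chosen after seeing the data, gave 1 for deficient Ttpa-/- against aged wild-type cortex, 1 for the diet in wild-type cerebellum and 1 for the interaction of age and region. Without replicates 1 and 2 of the young cerebellum, also chosen after seeing the data, 2 subunits were called for ageing, and Grm5 stood at -0.06. The cause of these moves was not tested.

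Leaving out 1 array at a time gave, between the regions, 28 to 30 calls in young and 28 to 29 in aged wild-type mice, 30 to 31 in deficient wild type, 29 to 30 in deficient and 25 to 28 in supplemented Ttpa-/-. In the cortex it gave 0 to 1 for ageing, 0 to 4, 0 to 2 and 0 to 0 for deficient Ttpa-/-, deficient wild type and supplemented Ttpa-/- against aged wild type, 0 to 3 for the diets of Ttpa-/-, and 0 to 3 and 0 to 1 for deficient and supplemented Ttpa-/- against deficient wild type. In the cerebellum it gave 2 to 8 for ageing, 0 to 2, 0 to 2 and 1 to 4, then 0 to 0, and then 1 to 3 and 2 to 4, in the same order. The interactions had 0 to 5 for age and 1 to 4 for deficient Ttpa-/-.

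With the replicate block, the deficient Ttpa-/- region comparison had 30 calls, as without it, and no other count moved by over 1.5 times. Whether the numbers pair arrays of 1 mouse is not known in any comparison. Same-numbered arrays of different mice also deviated together, with r up to 0.66 between the 2 diets of Ttpa-/- cerebellum. Such correlations therefore cannot show pairing by mouse. Of the values of single subunits under the alternatives, 2634 kept direction and side of the threshold, and 156 lost and 53 gained the call. A further 8 turned sign with no call in either fit, and the 2 that turned sign from or to a call are given above. The slide block was not run. The signal of Gabra5, Grin2d and Grin3b, near background on part of the arrays, limits their folds.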

Other observations

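The array's design places the probe of the targeted gene Ttpa at 19957856 to 19957915 on chromosome 4 of mm9, that of Car8 at 8070545 to 8070604, those of the rho subunits Gabrr2 and Gabrr1 at 33182776 to 33182835 and 33250489 to 33250548, that of the GABA-B subunit Gabbr2 at 46677374 to 46677433, and that of Grin3a at 49678098 to 49678157. Grik3 and Gabrd lie further along the chromosome, at 125391317 to 125391376 and 154759071 to 154759089. Car8, which encodes a Purkinje cell protein that binds the inositol trisphosphate receptor, was lower in Ttpa-/- than in aged wild-type mice in the cerebellum, by -2.58 on the deficient diet and -2.89 on the supplemented one. In the cortex Car8 was above background on 4 of 4 aged wild-type arrays (-2.37, -2.27, -2.69 and -2.58) and on 0 of 4 supplemented Ttpa-/- arrays. Gabrr2, the nearest subunit to Ttpa on the chromosome, was the one called higher in the cerebellum of both Ttpa-/- groups against deficient-diet wild-type mice with no overlap of arrays. Grin3a was called higher in the same comparisons, with 1 array of the deficient-diet group within the wild-type range. The cerebellar Car8 values above have another reference, the normally fed aged wild type. With that reference neither Gabrr2 nor Grin3a was called by limma in either Ttpa-/- group. Gabrr2 then differed by 0.44 on the deficient diet and 0.36 on the supplemented one, and Grin3a by 0.37 and 0.58. Whether nearness to Ttpa had a part was not tested.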
